A study of Mus musculus with 6 samples.

Results

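The TGF-beta ligands, receptors and latency proteins of the mouse are 10 of the 53715 genes in the deposited gene table. They were chosen by name: the ligands Tgfb1, Tgfb2 and Tgfb3, the receptors Tgfbr1, Tgfbr2 and Tgfbr3, and the latent TGF-beta binding proteins Ltbp1, Ltbp2, Ltbp3 and Ltbp4. All 10 passed the filter on low counts and were tested among 26559 genes. RNA was measured by total RNA sequencing in cells sorted as CD146+CD45-CD31- from the gastrocnemius-soleus complex of male C57BL/6J mice, WT in genotype and 14 weeks of age. In the stimulated group the muscles that move the foot were driven electrically through 40 contractions, 20 eccentric and 20 concentric, in about 10 minutes, and tissue was taken 3 hours later. Sham mice had no stimulation, and each group had 3 mice with 1 library each.

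TGF-beta is secreted as an inactive complex in which its own propeptide holds the ligand, and a latent TGF-beta binding protein ties that complex to the extracellular matrix. Integrins, thrombospondin-1 and proteases free the ligand, which binds the type II receptor, encoded by Tgfbr2. That receptor then activates the type I receptor, encoded by Tgfbr1, and Smad transcription factors carry the signal to the nucleus. The pathway is known for guiding the differentiation of mural cells around vessels, and in muscle for promoting matrix deposition and restraining regeneration.

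The stimulated libraries held 18204991 to 23709220 estimated reads and the sham libraries 17520338 to 21825118. The labelled cell type, pericytes, was checked against defining markers, and RNA of both antigens excluded by the gate was found in every library. In CPM, counts scaled to library size with TMM factors, Mcam, which encodes CD146, ranged from 24.3 to 105 over the 6 libraries, Pdgfrb from 12.5 to 59.8 and Cspg4 from 3.85 to 16.8. Ptprc, which encodes CD45, ranged from 194 to 1035 CPM and Pecam1, which encodes CD31, from 384 to 1277 CPM, although the gate removes cells that carry either antigen. Sham replicate 2 stood apart, with the highest summed level of the 12 endothelial markers (7100 CPM, against 1602 to 4267 CPM in the others) and the lowest of the 7 B cell markers (262 CPM, against 1579 to 2998 CPM). In such bulk RNA, fewer cells of a type and less RNA per cell cannot be told apart.

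Stimulation moved no member past the adjusted threshold, and the 2 largest differences in the gene table were lower values of Tgfb2, the ligand that depends most on betaglycan for receptor binding, and of Ltbp4, the most abundant latency protein. Of the 10 members, 4 had a positive and 6 a negative log2 fold change of stimulated over sham, with a median of -0.18. Over all tested genes, 52% were below 0 and the median was -0.02. The quasi-likelihood test of edgeR with Benjamini-Hochberg adjustment called 0 genes higher and 0 lower at an adjusted p of 0.05, a background of 0% in each direction, and 0 members. At an unadjusted p under 0.05, 2 members were lower (background 4.41%, or 1172 genes) and 0 were higher (background 2.64%, or 700 genes). DESeq2 called 74 genes higher and 153 lower at an adjusted p of 0.05, with Tgfb2 among the lower ones, and limma voom called 0 in each direction. The 3 stimulated values lay above the 3 sham values for 1 member, Tgfb1 (background 6.12%), and below them for 2, Tgfb2 and Tgfb3 (background 5.89%).

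The deposited gene values are scaled by transcript length, so the test was repeated on estimated reads summed over all transcripts of a gene and on reads of protein-coding transcripts alone. At an unadjusted p under 0.05, 3 members, Tgfb2, Tgfb3 and Ltbp4, were lower by summed reads (background 5%) and the same 3 by coding reads (background 6.47%). No member was higher by either (background 2.49% and 2.65%). Values below all sham values were again those of Tgfb2 and Tgfb3, against a background of 6.03% by summed reads and 8.34% by coding reads, and 0 members lay above all sham values (background 6.08% and 6.38%). By these countings 1 gene passed the adjusted threshold as higher (0.00377% of 26548 and 0.00617% of 16216) and 0 as lower, and it was not a member.

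**Figure D1:**
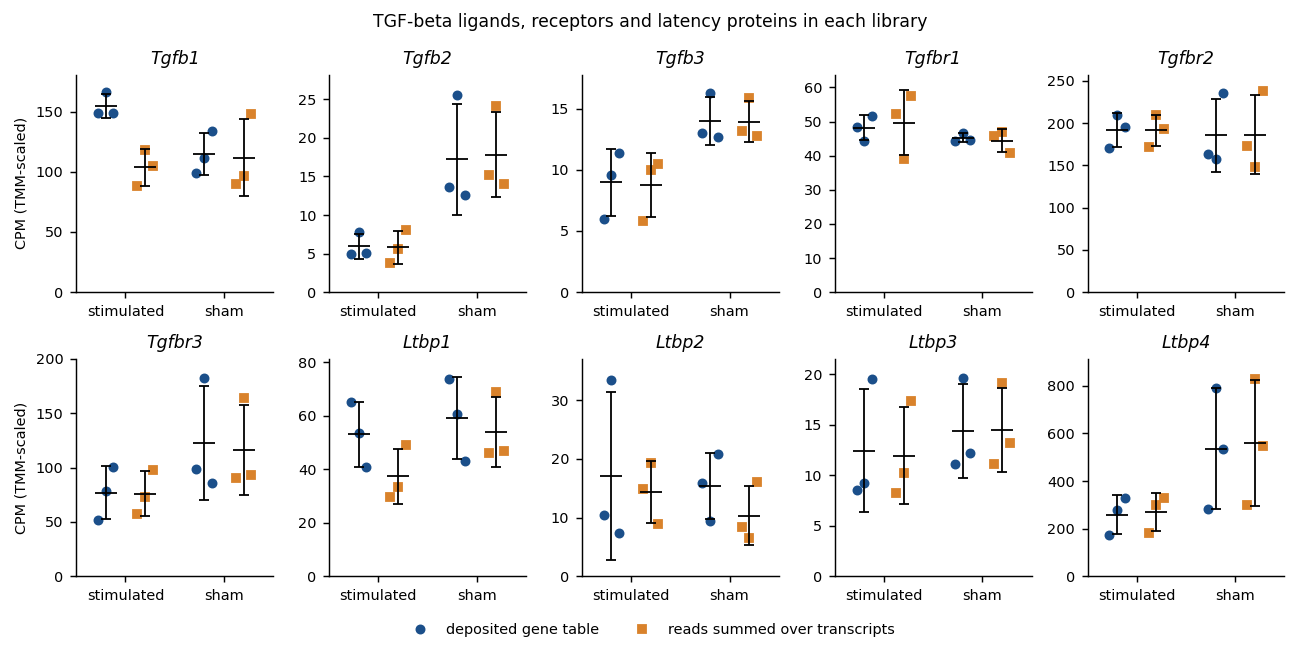
TMM-scaled CPM of each member in the 3 stimulated libraries (left) and the 3 sham libraries (right), from the deposited gene table (circles) and from reads summed over transcripts (squares); bars are the mean and SD of 3 libraries. Tgfb2 and Tgfb3 are lower in every stimulated library under both countings, whereas the separation of Tgfb1 in the gene table is not seen in the summed reads.

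Tgfb1 encodes the ligand most widely made by immune, endothelial and mural cells (ENSMUSG00000002603.15, GRCm38, chr7:25687002-25705077, plus strand). In the gene table it stood at 149, 166 and 149 CPM in the stimulated libraries, against 99.2, 112 and 134 CPM in the sham libraries. Every stimulated library was thus above every sham library, although the log2 fold change of 0.43 (SE 0.24) had an adjusted p of 0.79. The reads summed over its 5 annotated transcripts gave another picture, with 87.9, 118 and 105 CPM in stimulated and 89.9, 96.8 and 148 CPM in sham libraries. These groups overlapped, and the log2 fold change was -0.11 (SE 0.26). Reads of the single protein-coding transcript, scaled to all coding reads, gave 117, 166 and 143 CPM in stimulated and 133, 132 and 215 CPM in sham libraries, a log2 fold change of -0.17 (SE 0.26).

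The countings parted at a transcript of 241 bases, Tgfb1-205, annotated as a processed transcript without a coding sequence. It has 2 exons on the plus strand: chr7:25688148-25688223 (76 bases) lies inside a coding exon of the full-length Tgfb1-201, and chr7:25688560-25688724 (165 bases) lies inside an intron of it. Its sequence in GENCODE release M21 (GRCm38) is shown because it carries the Tgfb1 value of the gene table, with the stretch that is intronic in Tgfb1-201 in capitals.
Tgfb1-205: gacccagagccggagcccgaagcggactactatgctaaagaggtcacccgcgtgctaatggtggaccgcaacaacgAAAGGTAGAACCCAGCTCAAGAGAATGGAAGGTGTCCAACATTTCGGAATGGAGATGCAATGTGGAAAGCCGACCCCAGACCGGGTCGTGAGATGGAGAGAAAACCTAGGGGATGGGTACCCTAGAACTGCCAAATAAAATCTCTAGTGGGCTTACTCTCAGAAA
The transcript tables give it an effective length of 17 bases, the length over which reads are taken to start, so that each of its reads weighs far more in TPM, the deposited abundance per length, than a read of Tgfb1-201.

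Tgfb1-205 received 107, 139 and 122 estimated reads in the stimulated libraries, against 79, 76 and 94 in the sham libraries. As a share of the Tgfb1 reads, stimulated libraries had 6.35% (95% Wilson interval 5.28 to 7.62), 5.94% (5.05 to 6.98) and 5.08% (4.27 to 6.03). Sham libraries had 3.86% (3.11 to 4.78), 4.25% (3.41 to 5.28) and 3.37% (2.76 to 4.10); the intervals cover counting error only. The groups did not overlap in this share, although single intervals of the groups did, and the background of such shares was not counted. Of the Tgfb1 TPM, the same reads made up 87.7, 87.6 and 85.1% in stimulated and 82.1, 82.9 and 79.9% in sham libraries. The deposited gene values follow TPM, so most of the Tgfb1 value in the gene table rests on this small share of the reads. In an edgeR fit over 65202 transcripts, the log2 fold change was 0.50 (SE 0.29) for Tgfb1-205 and -0.25 (SE 0.29) for Tgfb1-201, each with an adjusted p of 1. That fit called 0 transcripts, and 1.68% of all were higher and 2.95% lower at an unadjusted p under 0.05. The retained-intron Tgfb1-204 held 13.1 to 24.3% of the Tgfb1 reads. By CPM it too lay above all sham values after stimulation, with a log2 fold change of 0.25 (SE 0.24).

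**Figure D2:**
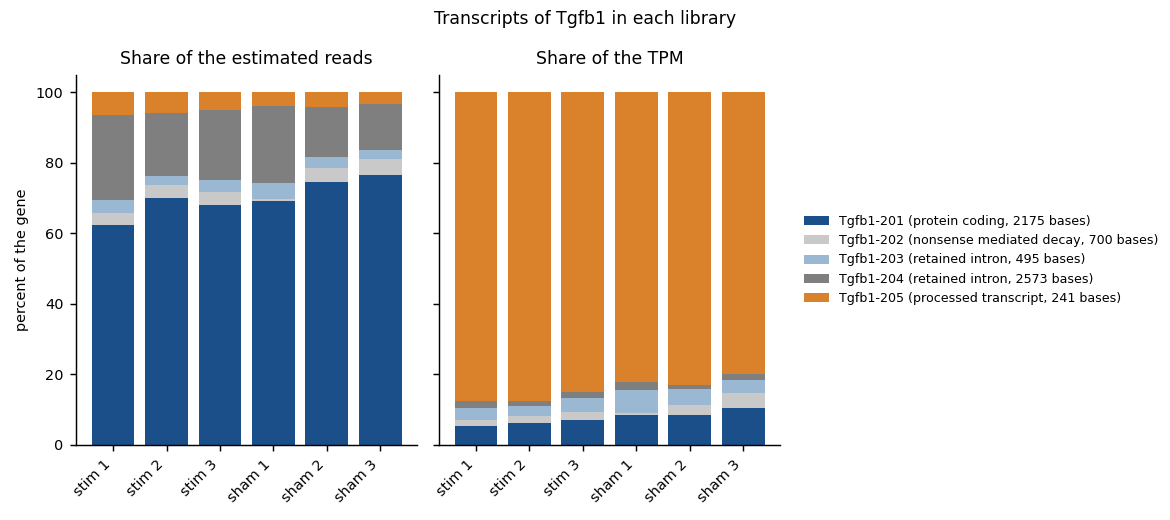
Share of each annotated Tgfb1 transcript in the estimated reads (left panel) and in the TPM (right panel) of the gene, in percent, for the 3 stimulated and then the 3 sham libraries. Tgfb1-205 (orange, top) takes 3.37 to 6.33% of the reads and 79.9 to 87.7% of the TPM, whereas Tgfb1-201 (blue, bottom) takes 62.4 to 76.6% of the reads.

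Tgfb2 encodes a ligand that binds the type II receptor weakly unless betaglycan presents it (ENSMUSG00000039239.14, chr1:186622792-186705989, minus strand). It stood at 4.95, 7.79 and 5.08 CPM in the stimulated libraries, against 13.6, 25.5 and 12.6 CPM in the sham libraries. All stimulated values were below all sham values, and the log2 fold change was -1.54 (SE 0.36, unadjusted p = 0.0022, adjusted p = 0.42). From summed reads the log2 fold change was -1.61 (SE 0.34, adjusted p = 0.34), and from protein-coding reads, at 7.46, 9.85 and 15.6 CPM in stimulated and 30.7, 41.0 and 25.3 CPM in sham libraries, it was -1.56 (SE 0.33, adjusted p = 0.19). DESeq2 on the gene table gave -1.50 with an adjusted p of 0.018, which passed. Without sham replicate 2, its highest library, the edgeR value was -1.13.

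The full-length coding transcript Tgfb2-201, of 5116 bases, held 73.1 to 97.3% of the Tgfb2 reads over the 6 libraries. It had 66.4, 81.2 and 178 estimated reads in stimulated libraries, against 327, 348 and 245 in sham libraries, and a log2 fold change of -1.61 (SE 0.39). The difference was thus as large in the transcript that encodes the ligand as in the length-scaled table. Non-coding transcripts held 2.73 to 12.8% of the Tgfb2 reads but 43.6 to 76.5% of its TPM, which the gene table follows. An antisense gene, Gm29491, overlaps Tgfb2 on the opposite strand, and whether counting used the strand is not given in the sources used here.

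Tgfb3, which encodes a ligand needed for fusion of the palate, has a single annotated transcript (ENSMUSG00000021253.7, chr12:86056745-86079041, minus strand). It stood at 6.01, 9.56 and 11.4 CPM in the stimulated libraries, against 13.0, 16.2 and 12.7 CPM in the sham libraries. The groups did not overlap, and the log2 fold change was -0.64 (SE 0.31, adjusted p = 0.73). Summed reads gave -0.67 (SE 0.28, unadjusted p = 0.041, adjusted p = 0.64), where 5% of all genes were lower at an unadjusted p under 0.05. Without stimulated replicate 1, its lowest library, the value was -0.37 in the gene table (unadjusted p = 0.28) and -0.43 by summed reads (unadjusted p = 0.18). The opposite strand of the locus holds Ttll5, a protein-coding gene.

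Among the ligands, Tgfb1 took most of the RNA in every library. By TPM of protein-coding transcripts, its share of the 3 ligands was 91.2, 89.4 and 87.0% in stimulated and 79.5, 74.5 and 86.8% in sham libraries. The mean share was 89.2 ± 2.11% after stimulation and 80.3 ± 6.22% in sham (SD, n = 3 each), with an exact two-sided permutation p of 0.1, the smallest that 3 against 3 allows. The coding TPM of Tgfb1 itself was 0.933, 0.973 and 1.15 in stimulated and 1.32, 1.69 and 1.25 in sham libraries. Those values lay below all sham values, opposite to the gene table, although TPM of different libraries share no common scale here because short transcripts hold most of it. The share of Tgfb2 was 3.79 ± 1.07% after stimulation and 10.4 ± 4.15% in sham (SD, n = 3 each; exact permutation p = 0.1). The share of Tgfb3 was 6.98 ± 1.10% after stimulation and 9.36 ± 2.24% in sham (SD, n = 3 each; exact permutation p = 0.3). The reads of the 3 ligands together came to 97.4, 133 and 124 CPM in stimulated and 118, 137 and 175 CPM in sham libraries, which overlapped. In the gene table, where Tgfb1-205 weighs most, the sums were 160.1, 184 and 165 CPM in stimulated and 126, 153 and 159 CPM in sham libraries, which did not.

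**Figure D3:**
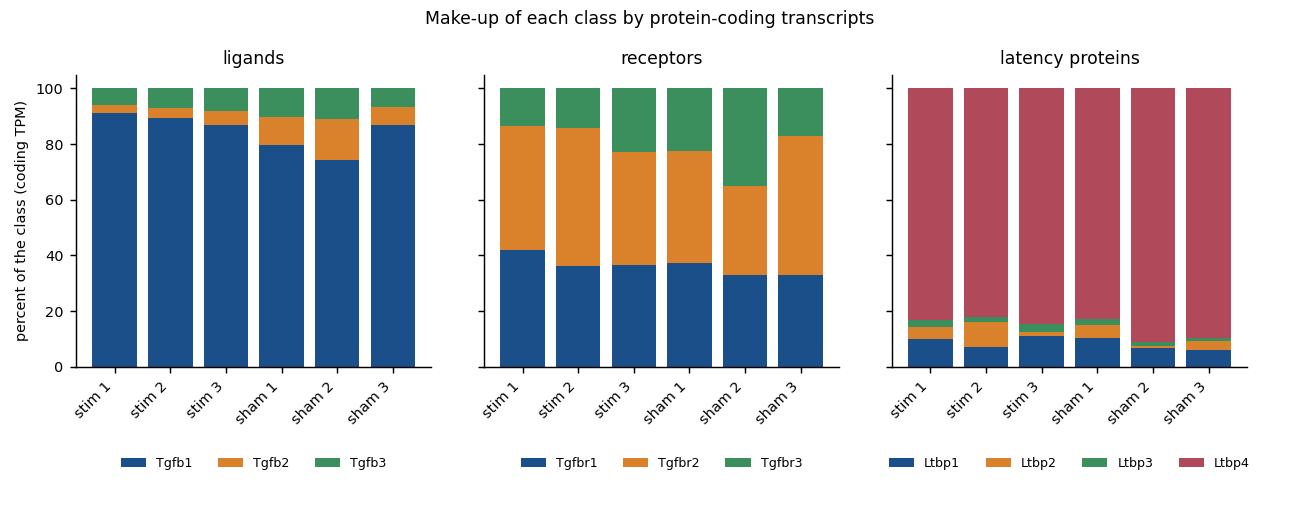
Share of each gene in the TPM of protein-coding transcripts of its class, in percent, for the 3 stimulated and then the 3 sham libraries, with ligands in the left, receptors in the middle and latency proteins in the right panel. Tgfb1 takes 87.0 to 91.2% of the ligands in stimulated and 74.5 to 86.8% in sham libraries, and Ltbp4 takes 82.3 to 91.1% of the latency proteins in all 6.

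The promoters of Tgfb2, Ltbp4 and Tgfb1 are shown so that the sequence before the start of the 2 members with the largest differences can be read beside that of the most abundant ligand. Each window runs from 250 bases before to 50 bases after a start site of RefSeq (GRCm38.p6), 5′ to 3′ on the strand of the gene. Capitals mark matches, on either strand, to the GC box GGGCGG, the TATA box TATAAA, the cyclic AMP response element core TGACG and the E-box CACGTG. The windows are chr1:186705940-186706239 (minus strand) for Tgfb2, chr7:25686752-25687051 (plus strand) for Tgfb1 and chr7:27333614-27333913 (minus strand), at the start used by the main coding transcript, for Ltbp4.
Tgfb2 promoter: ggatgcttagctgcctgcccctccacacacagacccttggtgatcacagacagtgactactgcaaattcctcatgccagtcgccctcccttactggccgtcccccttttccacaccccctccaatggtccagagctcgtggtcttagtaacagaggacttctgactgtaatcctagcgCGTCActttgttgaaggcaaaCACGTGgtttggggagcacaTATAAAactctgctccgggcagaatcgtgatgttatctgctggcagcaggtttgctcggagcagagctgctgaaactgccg
Tgfb1 promoter: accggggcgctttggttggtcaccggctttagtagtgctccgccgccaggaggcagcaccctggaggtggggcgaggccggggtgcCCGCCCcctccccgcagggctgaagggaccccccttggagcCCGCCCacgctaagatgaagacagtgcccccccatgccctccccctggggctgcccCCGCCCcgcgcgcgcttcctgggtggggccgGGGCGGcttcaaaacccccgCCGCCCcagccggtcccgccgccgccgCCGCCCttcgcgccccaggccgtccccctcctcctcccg
Ltbp4 promoter: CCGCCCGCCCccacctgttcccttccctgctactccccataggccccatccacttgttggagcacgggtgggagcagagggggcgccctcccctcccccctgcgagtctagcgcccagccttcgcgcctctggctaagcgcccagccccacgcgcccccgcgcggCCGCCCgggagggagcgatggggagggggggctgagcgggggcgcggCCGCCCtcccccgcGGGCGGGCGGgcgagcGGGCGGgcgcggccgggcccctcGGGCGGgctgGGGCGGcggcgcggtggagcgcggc
The Tgfb2 window holds a response element core 72 bases, an E-box 51 bases and a TATA box 31 bases upstream of the start, and no GC box. The Tgfb1 window holds GC boxes and none of the other 3 motifs, and the same is true of Ltbp4, where some GC boxes overlap each other. Of 32851 promoter windows of the same length, 35.7% held a GC box, 13.6% a TATA box, 20.8% the response element core and 7.15% the E-box. Promoter windows were matched for 8 of the 10 members.

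The kinase receptors that carry the signal had levels that overlapped between the groups. Tgfbr1, the type I receptor kinase (ENSMUSG00000007613.15, chr4:47353222-47414931, plus strand), stood at 48.4, 44.3 and 51.6 CPM in the stimulated libraries, against 44.4, 46.7 and 44.6 CPM in the sham libraries. The log2 fold change was 0.09 (SE 0.21, adjusted p = 0.99). Tgfbr2, the type II receptor kinase (ENSMUSG00000032440.13, chr9:116084293-116175360, minus strand), stood at 171, 209 and 195 CPM in stimulated and 164, 158 and 235 CPM in sham libraries, with a log2 fold change of 0.05 (SE 0.26, adjusted p = 0.99). By TPM, each gene had the same leading transcript in the groups. The coding Tgfbr1-203, of 1713 bases, took 61.8% of the Tgfbr1 TPM on average after stimulation and 65.6% in sham. Tgfbr2-201, of 3476 bases, took 72.1% of the Tgfbr2 TPM after stimulation and 72.3% in sham. By reads, the longer Tgfbr1-201 led instead, with 47.7 to 60.3% of the Tgfbr1 reads against 35.0 to 47.0% for Tgfbr1-203. Tgfbr2-201 held 48.4 to 63.2% of the Tgfbr2 reads, and in sham replicate 1 Tgfbr2-202 held more (51.6%).

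Tgfbr3 encodes betaglycan, the co-receptor that presents TGF-beta 2 to the type II receptor (ENSMUSG00000029287.14, chr5:107106570-107289629, minus strand). It stood at 51.5, 78.1 and 100.2 CPM in the stimulated libraries, against 98.5, 182 and 85.6 CPM in the sham libraries. The highest stimulated library lay above 2 of the 3 sham libraries, so the groups overlapped. The log2 fold change was -0.67 (SE 0.36, adjusted p = 0.79), and -0.25 without sham replicate 2. Within the coding TPM of the 3 receptors, Tgfbr3 took 16.9 ± 5.30% after stimulation and 25.0 ± 9.22% in sham (SD, n = 3 each; exact permutation p = 0.3). The reads of the 3 receptors together stood at 282 to 349 CPM in stimulated and 309 to 372 CPM in sham libraries.

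Ltbp4 encodes a latency protein that binds mainly the TGF-beta 1 complex and is also needed for elastic fibre assembly (ENSMUSG00000040488.17, chr7:27305136-27337692, minus strand). It stood at 172, 277 and 330 CPM in the stimulated libraries, against 283, 792 and 532 CPM in the sham libraries. The highest stimulated library lay above the lowest sham library, and the other 2 sham libraries lay above all stimulated ones. The log2 fold change was -1.05 (SE 0.41, unadjusted p = 0.031, adjusted p = 0.67). Summed reads gave -1.06 (SE 0.40) and protein-coding reads -0.96 (SE 0.36). Without sham replicate 2, its highest library, the gene table value was -0.65.

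Ltbp4 has an upstream start and a start within the gene, whose window is shown above. Among coding transcripts over 1000 bases, those from the upstream start held 1.40 to 1.93% of the reads in stimulated and 0.611 to 2.76% in sham libraries. The coding transcript Ltbp4-205, of 5118 bases, begins at the start within the gene. It held 45.4 to 52.3% of all Ltbp4 reads, those of non-coding transcripts included. It had 1571, 2692 and 3712 reads in stimulated and 3573, 7066 and 4838 in sham libraries, not scaled to library size. Scaled, it stood at 83.8, 134 and 161 CPM in stimulated and 162, 392 and 250 CPM in sham libraries, which did not overlap. The background of such separation among transcripts was not counted. Its log2 fold change in the edgeR transcript fit was -1.09 (SE 0.40, unadjusted p = 0.031, adjusted p = 1). There, 2.95% of all transcripts were lower at an unadjusted p under 0.05. Ltbp4-208, a retained-intron transcript of 550 bases, had -1.62 (SE 0.42, unadjusted p = 0.0061, adjusted p = 0.97). With Ltbp4-207, of 518 bases, it held most of the Ltbp4 TPM, and non-coding transcripts made up 65.5 to 69.6% of that TPM but 12.0 to 16.0% of the reads.

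Ltbp1 encodes the founding latency protein, which binds all 3 TGF-beta complexes and fibrillin (ENSMUSG00000001870.15, chr17:75005568-75392512, plus strand). It stood at 65.1, 53.6 and 40.7 CPM in the stimulated libraries, against 73.7, 60.7 and 43.2 CPM in the sham libraries, with a log2 fold change of -0.16 (SE 0.29). Summed reads gave 29.8, 33.5 and 49.2 CPM in stimulated and 46.3, 68.9 and 46.7 CPM in sham libraries, a log2 fold change of -0.52 (SE 0.27, adjusted p = 0.74). The order of the libraries differed between the countings: stimulated replicate 3 was the lowest of all in the gene table and the highest stimulated library by reads. Ltbp1-207, a processed transcript of 519 bases, held 62.1 to 88.6% of the Ltbp1 TPM with 6.37 to 24.3% of its reads. Coding transcripts over 1000 bases that start upstream, which encode the long form of the protein, held 39.6 ± 1.34% of the coding reads after stimulation and 43.5 ± 2.20% in sham (SD, n = 3 each).

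Ltbp2 encodes a matrix protein that does not bind latent TGF-beta (ENSMUSG00000002020.15, chr12:84783212-84876532, minus strand). It stood at 10.4, 33.5 and 7.43 CPM in the stimulated libraries, against 15.8, 9.48 and 20.8 CPM in the sham libraries. Stimulated replicate 2 was far above the other libraries in the gene table, and by summed reads it had 19.4 CPM, against 16.1 CPM in the highest sham library. In it the short Ltbp2-204, Ltbp2-205 and Ltbp2-206 held 22.0, 21.8 and 22.4% of the Ltbp2 TPM on 16.1, 10.6 and 14.6 estimated reads. In the other stimulated libraries each held at most 5.92%. In sham libraries Ltbp2-204 held 16.7 to 45.5% and Ltbp2-206 22.8 to 34.1%, with Ltbp2-205 at 0. The log2 fold change was 0.15 (SE 0.55), and -0.79 without stimulated replicate 2. By summed reads it was 0.47 (SE 0.39), and 0.19 without that library; by coding reads it was 0.55 (SE 0.46), and 0.28 without it. Ltbp3, whose product binds latent TGF-beta (ENSMUSG00000024940.10, chr19:5740904-5758532, plus strand), stood at 8.59, 9.26 and 19.5 CPM in stimulated and 11.1, 19.7 and 12.2 CPM in sham libraries. Its log2 fold change was -0.20 (SE 0.39).

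**Figure D4:**
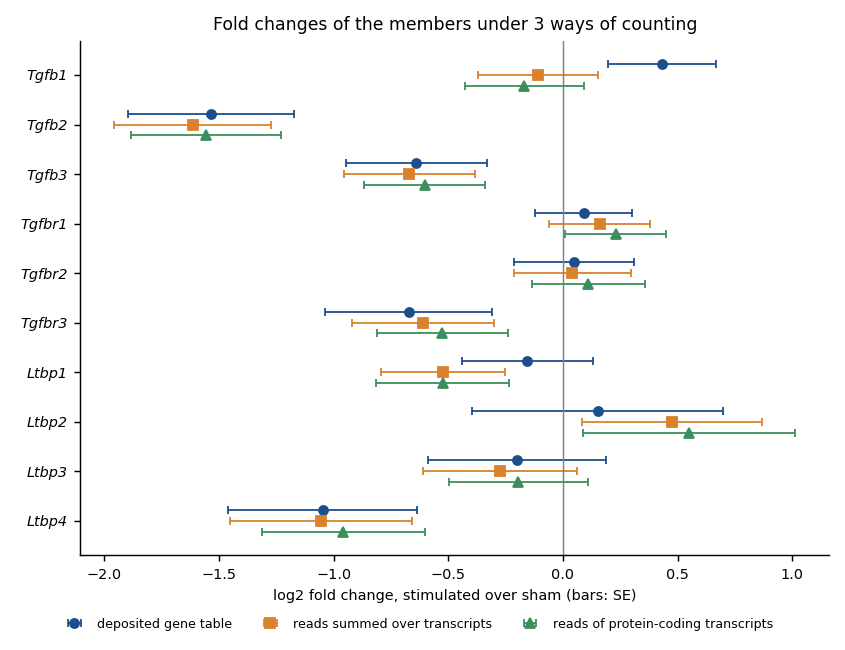
Log2 fold change of stimulated over sham with its SE for each member from the deposited gene table (circles), from reads summed over transcripts (squares) and from reads of protein-coding transcripts (triangles). Tgfb2 lies between -1.61 and -1.54 and Ltbp4 between -1.06 and -0.96 under all 3, whereas Tgfb1 lies at 0.43 in the gene table and at -0.11 and -0.17 by reads.

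The members were ranked by level per length, as TPM of protein-coding transcripts, within libraries. By geometric mean over the 6 libraries, Ltbp4 had the highest coding TPM at 2.50, followed by Tgfbr2 at 1.46, Tgfbr1 at 1.25, Tgfb1 at 1.20 and Tgfbr3 at 0.682. Ltbp1 followed at 0.242, Tgfb3 at 0.113, Ltbp2 at 0.0855, Tgfb2 at 0.0851 and Ltbp3 at 0.0579. Tgfbr3 lay above Ltbp1, and Ltbp1 above Tgfb3, in 6 of 6 libraries. Tgfbr1 lay above Tgfb1 in 4 of 6, Ltbp2 above Tgfb2 in 3 of 6, and Tgfb3 lay above Ltbp2, and Tgfb2 above Ltbp3, in 4 of 6, so these neighbours cannot be ordered beyond their spread. The TPM values are small because transcripts under 300 bases held 90.6 to 93.7% of all TPM, with 6.09 to 11.3% of the reads.

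In the gene table, Ltbp4, Tgfbr3, Tgfb2, Tgfb3 and Ltbp3 were each highest in sham replicate 2, as was Ltbp1 by reads. In sham replicate 2 the summed markers of endothelial cells, pericytes, smooth muscle and fibro-adipogenic progenitors were highest. So were those of macrophages and monocytes (1223 CPM), lymphatic endothelium (424 CPM) and platelets (59.6 CPM). All 10 fibro-adipogenic progenitor markers had negative fold changes. Their sums were 1061, 1228 and 2615 CPM in stimulated and 1636, 3447 and 2513 CPM in sham libraries. The summed endothelial markers stood at 1602, 1847 and 2371 CPM in stimulated and 2817, 7100 and 4267 CPM in sham libraries. Of the 12 markers, 10 were lower after stimulation at an unadjusted p under 0.05 (background 4.41%). The 12 pericyte markers summed to 182, 225 and 414 CPM in stimulated and 337, 707 and 404 CPM in sham libraries, with 11 of 12 fold changes negative. The 8 smooth muscle markers summed to 96.1, 156 and 230 CPM in stimulated and 165, 449 and 293 CPM in sham libraries. The 9 tested neutrophil markers summed to 203, 142 and 155 CPM in stimulated and 50.2, 56.5 and 50.9 CPM in sham libraries. All 9 were higher at an unadjusted p under 0.05 (background 2.64%). The 10 T and NK cell markers summed to 596, 634 and 540.1 CPM in stimulated and 411, 78.3 and 337 CPM in sham libraries, with 10 of 10 fold changes positive. Ptprc stood at 1027, 1035 and 989 CPM in stimulated and 814, 194 and 863 CPM in sham libraries. The 8 myofibre markers, all with positive fold changes, summed to 43.2, 51.9 and 155 CPM in stimulated and 25.1, 43.6 and 43.9 CPM in sham libraries. None of the defining markers Mcam, Pdgfrb, Cspg4, Pecam1 and Ptprc, nor Pf4 of platelets (8.62 to 41.6 CPM), was at 0 in any library. The part of these cell types in the member differences was not tested.

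The other genes of the pathway were read from 6 lists, and 0 of them passed the adjusted threshold in edgeR (background 0%). Proteins that free latent TGF-beta or anchor it in the matrix had 18 members tested, with a median log2 fold change of -0.15, and at an unadjusted p under 0.05, 2 were higher (background 2.64%) and 2 lower (background 4.41%). Thbs1, encoding thrombospondin-1, which activates the latent complex, stood at 155, 159 and 287 CPM in stimulated and 66.7, 116 and 81.1 CPM in sham libraries, a log2 fold change of 1.19 (SE 0.34, adjusted p = 0.54). Itgb3, an integrin subunit of the vitronectin receptor, had 0.80 (SE 0.32) and did not overlap between the groups either. Bmp1, a protease that cleaves latency proteins, had -0.91 (SE 0.30, unadjusted p = 0.014), but -0.67 by summed reads (unadjusted p = 0.052) and -0.50 by coding reads (unadjusted p = 0.14), where its groups overlapped. By those reads Itgb5, an integrin subunit, had an unadjusted p under 0.05 instead, at -0.94 and -0.88, and was named for that after its values were seen. Emilin1, which limits TGF-beta precursor processing, had -0.84 (SE 0.30).

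The 3 receptors and co-receptors outside the members all had negative log2 fold changes, with a median log2 fold change of -0.89 and 2 of 3 at an unadjusted p under 0.05 (background 4.41%). Eng, the co-receptor endoglin of endothelial cells, stood at 182, 137 and 189 CPM in stimulated and 206, 510 and 320 CPM in sham libraries, a log2 fold change of -1.03 (SE 0.35, unadjusted p = 0.018, adjusted p = 0.63). Bambi, a pseudoreceptor that dampens signalling, had -0.86 (SE 0.28, unadjusted p = 0.013), and Acvrl1, the endothelial type I receptor, had -0.89 (SE 0.39, unadjusted p = 0.051). The summed endothelial markers given above were also lower in every stimulated library than in every sham library. Their part in these values was not tested. The 5 proteoglycans that bind TGF-beta had 0 of 5 under an unadjusted p of 0.05, with Aspn at -1.06 (SE 0.62), Lum at -0.71 (SE 0.46), Bgn at -0.43 (SE 0.36) and Dcn at -0.31 (SE 0.50).

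Genes downstream of the receptors had fold changes of either sign. The 15 Smads and Smad regulators had a median log2 fold change of -0.12, with 1 lower (background 4.41%) and 0 higher (background 2.64%) at an unadjusted p under 0.05. That gene was Zfyve9, encoding the Smad anchor SARA, at -0.91 (SE 0.38); Ldlrad4 had -0.53 (SE 0.30), Fkbp1a -0.61 (SE 0.39) and the inhibitory Smad7 0.33 (SE 0.23). Smad7 had -0.02 by summed reads and 0.01 by coding reads. Of 17 response genes, 1 was higher (background 2.64%) and 2 were lower (background 4.41%) at an unadjusted p under 0.05, with a median of -0.16. Timp1, a protease inhibitor, averaged 1.63 ± 0.506 CPM in stimulated and 0.644 ± 0.198 CPM in sham libraries (SD, n = 3 each) without overlap, a log2 fold change of 1.34 (SE 0.50, adjusted p = 0.65). Acta2, the smooth muscle actin, had -1.23 (SE 0.47), Tgfb1i1, a focal adhesion adaptor, had -1.17 (SE 0.40) and Tagln, an actin-binding protein of smooth muscle, had -1.07 (SE 0.47).

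The related activin and myostatin branch had 10 of 11 genes tested, with a median log2 fold change of -0.18, and 0.18 by coding reads; Mstn did not pass the filter. At an unadjusted p under 0.05, 1 was higher (background 2.64%) and 2 were lower (background 4.41%). Acvr2a, an activin type II receptor, stood at 28.3, 27.0 and 30.4 CPM in stimulated and 57.2, 77.4 and 49.0 CPM in sham libraries. The groups did not overlap, and the log2 fold change was -1.10 (SE 0.25, unadjusted p = 0.0017, adjusted p = 0.42). Acvr2b, the other activin type II receptor, had -1.20 (SE 0.42, unadjusted p = 0.019), and -0.90 by coding reads (unadjusted p = 0.076). Inhbb, which encodes the activin B subunit, stood at 5.43, 5.52 and 8.22 CPM in stimulated and 2.13, 3.14 and 2.63 CPM in sham libraries, a log2 fold change of 1.28 (SE 0.34, unadjusted p = 0.0042, adjusted p = 0.50). Gdf11 had 0.76 (SE 0.38) with groups that overlapped.

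**Figure D5:**
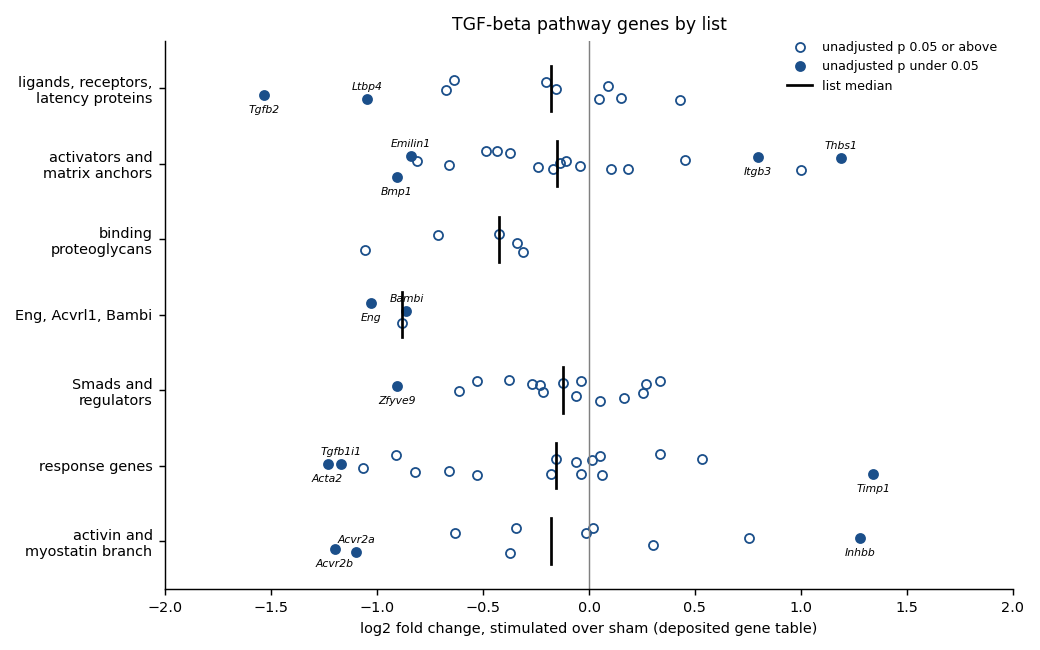
Log2 fold change of stimulated over sham in the deposited gene table for each tested gene of the members and of 6 other TGF-beta pathway lists; filled points have an unadjusted p under 0.05 and carry the gene symbol, and black lines are list medians. Every list median lies between -0.89 and -0.12, and 0 genes passed the adjusted threshold.

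The genes whose profile over the 6 libraries was most like each ligand, by Pearson correlation of log2 CPM in the gene table among 9781 genes, are given as a description. For Tgfb1 they were Map4k2 (r = 0.996), Tnk2 (0.992) and Lif (0.992). These were matched to the gene table value of Tgfb1, most of which rests on a short non-coding transcript. By summed reads the Tgfb1 profile was another, with 87.9, 118 and 105 CPM in stimulated and 89.9, 96.8 and 148 CPM in sham libraries. Whether these genes follow the coding RNA of Tgfb1 was not tested. For Tgfb2 they were Pik3r6 (0.995), Setd7 (0.990) and Filip1 (0.989), and for Tgfb3 Zfp532 (0.996), Art3 (0.988) and Tmem183a (0.987). The points share the 6 libraries and the length scaling of the table. Each named gene was picked as a top match among 9781 genes over 6 libraries. How high r would reach by such picking alone was not tested.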

How the data were processed

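Total RNA was sequenced from 6 libraries, 3 stimulated and 3 sham, made with a stranded low-input total RNA kit, per the labels' protocols. Among the tools listed, without their roles, in the submitters' processing notes are Salmon 0.8.2 and Trimmomatic 0.36, with the build GRCm38. Deposited files were estimated counts for 53715 genes and, per the file headers, TPM, read estimates and effective lengths for 135181 transcripts. The ratio of gene count to TPM, after a factor per library, was constant within 1% in 100% of 14096 genes with TPM above 0.1 in every library. Gene values there follow TPM and not summed reads. Tgfb3, Ltbp2 and Ltbp3 fell below that TPM in at least 1 library and were not in the check.

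Counts were rounded, filtered by filterByExpr (minimum count 10, total 15), scaled by TMM and tested with the robust quasi-likelihood test of edgeR 4.0.16 (R 4.3.3), with Benjamini-Hochberg adjustment over all 26559 genes. Estimated reads summed over all transcripts (26548 genes tested) or coding transcripts (16216) were fitted alike; the coding counts, transcript fit and coding shares were chosen after seeing the data. DESeq2 1.42.0 and limma 3.58.1 were alternatives, as were RLE factors, other filters, libraries left out, a replicate block, and mitochondrial and rRNA genes left out. Only the edgeR fit of the gene table was tested on simulated data. Coordinates come from GENCODE M21 and promoters from RefSeq. All 10 members are named; other lists give up to 4 genes by smallest p, and each ligand the 3 most correlated genes. Of the members' 48 transcripts, 28 held 10% or more of their gene's TPM in at least 1 library, and only some of these are named. Members and lists were chosen with earlier results of these data known. Replicate numbers were not taken as pairs. Of the response genes, 1 is not reported here.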

Additional observations from a re-analysis of the deposited data

How the results depend on the processing

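The direction of Tgfb2, Tgfb3, Tgfbr1, Tgfbr3 and Ltbp4 was the same under all alternatives run. Tgfb2 ranged from -1.77 to -1.13, Tgfb3 from -0.84 to -0.37 and Ltbp4 from -1.35 to -0.65 with a library left out. For Tgfb1 the gene table value of 0.43 became -0.11 from summed reads and -0.17 from coding reads; that table weights a transcript with an effective length of 17 bases. Leaving out a library, those read values ran from -0.24 to 0.16 and from -0.30 to 0.11. Ltbp2 was -0.10 with limma voom; the cause was not tested. With a library left out, Tgfbr2 ran from -0.053 to 0.27 (summed reads -0.14 to 0.27, coding reads -0.067 to 0.31), Ltbp1 from -0.33 to 0.032, Ltbp2 from -0.79 to 0.51 and Ltbp3 from -0.68 to 0.10. The sign turned for Tgfb1 by reads without sham replicate 3 (and, by summed reads, at 0.00022 without stimulated replicate 1), for Tgfbr2 in the gene table without sham replicate 1 or 2 or stimulated replicate 2, for Ltbp1 without sham replicate 1 or stimulated replicate 3, for Ltbp2 without sham replicate 2 or stimulated replicate 2, and for Ltbp3 without sham replicate 2 or stimulated replicate 1. For Ltbp1, Ltbp2 and Ltbp3 these turns were in the gene table; by summed or coding reads no left-out library turned their sign. The difference in the Tgfb1 share of the ligands was 2.82 percentage points by TPM, 10.7 by summed reads, which are not per length, and 8.96 by coding TPM. Genes called higher numbered 0 in the gene table, 74 with DESeq2, 3 with RLE factors, 44 with no filter, 1 from summed reads, 1 from coding reads, 3 at an adjusted p of 0.1 and 0 to 1 with a library left out (1 without stimulated replicate 3). Genes called lower numbered 0, but 153 with DESeq2 and 65 with no filter; DESeq2 left 6724 genes without an adjusted p. Tgfb2 passed with DESeq2 (-1.50, adjusted p = 0.018), and its adjusted p ranged up to 0.50 under the other settings that keep all libraries.

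The deviations of same-numbered libraries from their group means correlated at 0.32, -0.16 and 0.13, so the numbers were not taken as pairs. Values from so few libraries cannot exclude a pairing. A fit with the replicate number as a block called 0 genes higher and 0 lower, with Tgfb2 at -1.49 and Ltbp2 at -0.14. The sparse members rest on few reads: Tgfb2 had 73 to 447 estimated reads per library. The effect of depth on the spread was not tested.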
